A study of Mus musculus with 4 samples.

Results

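Transcripts of 29 genes of mevalonate and sterol synthesis and of the control of SREBP2 were followed in peritoneal macrophages of mice with an intact or a deleted Dnmt1, which encodes the maintenance DNA methyltransferase. The genes were taken by name from a list, and all 29 of them stood once each among the 13834 rows of the count table. Of these, 20 encode enzymes, which are described by pathway step, and 9 encode SREBP2 itself or proteins that carry, retain or cut it or that transport sterol. The series held 2 Dnmt1fl/fl and 2 Dnmt1KO samples of mouse macrophages. Both genotypes were homozygous for a floxed Dnmt1 allele, and the Dnmt1KO mice also carried LysM-Cre, which is active in macrophages, in neutrophils and in other myeloid cells. The Dnmt1fl/fl samples bore the genotype label wt, and the presence of Cre and the loss of Dnmt1 cannot be told apart. According to the methods, macrophages were collected from 10-week-old mice 3 days after intraperitoneal thioglycolate, a broth that draws inflammatory cells into the cavity, and were described as cultured after isolation; whether the RNA was taken before or after culture was not stated. Nothing in the labels said whether the samples came from separate animals or from pools, so the p-values measure only the spread between these samples.

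Cholesterol is built from acetyl-CoA through HMG-CoA, mevalonate, the isoprene units, farnesyl diphosphate, squalene and lanosterol. When membrane sterol is plentiful, SREBP2 stays in the endoplasmic reticulum bound to its escort Scap, which is held there by the Insig proteins. When sterol falls, the complex moves to the Golgi, the proteases Mbtps1 and Mbtps2 release the N-terminal domain of SREBP2, and that domain enters the nucleus and turns on genes of sterol synthesis and uptake, often together with the CCAAT-binding factor NF-Y and with Sp1. Macrophages also take up sterol from lipoproteins and dead cells, and their own synthesis is known to respond to that load.

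RefSeq promoter windows of GRCm38.p6, from 250 bases before to 50 bases after each annotated start, were at hand for 24 of the 29 genes, in 32 windows; Fdps, Fdft1, Sqle, Stard4 and Erlin2 were not matched. Windows are printed 5′ to 3′ for Hmgcs1, in which the searched letters of a sterol response element, TCACNCCAC, were found. They are also printed for Idi1 and Cyp51, the enzymes with the largest differences between genotypes, and for Srebf2, which encodes SREBP2. They cover chr13:119690101-119690400 on the plus strand for Hmgcs1, chr13:8885356-8885655 on the plus strand for Idi1, chr5:4104648-4104947 on the minus strand for Cyp51 and chr15:82147019-82147318 on the plus strand for Srebf2. Capitals mark the CCAAT box, written CCAAT or, on the other strand, ATTGG, and the letters TCACNCCAC, but no other form of the sterol response element.
Hmgcs1: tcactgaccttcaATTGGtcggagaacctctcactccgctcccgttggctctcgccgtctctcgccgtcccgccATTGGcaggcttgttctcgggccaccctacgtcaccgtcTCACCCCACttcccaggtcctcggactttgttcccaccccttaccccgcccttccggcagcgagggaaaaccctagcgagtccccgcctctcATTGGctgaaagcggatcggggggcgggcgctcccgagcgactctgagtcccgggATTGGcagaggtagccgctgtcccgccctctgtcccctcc
Idi1: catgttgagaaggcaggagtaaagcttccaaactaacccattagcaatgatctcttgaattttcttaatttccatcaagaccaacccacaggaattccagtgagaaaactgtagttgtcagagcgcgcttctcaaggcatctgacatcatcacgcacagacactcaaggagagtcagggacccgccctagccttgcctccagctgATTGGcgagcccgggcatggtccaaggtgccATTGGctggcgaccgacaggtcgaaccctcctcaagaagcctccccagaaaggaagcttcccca
Cyp51: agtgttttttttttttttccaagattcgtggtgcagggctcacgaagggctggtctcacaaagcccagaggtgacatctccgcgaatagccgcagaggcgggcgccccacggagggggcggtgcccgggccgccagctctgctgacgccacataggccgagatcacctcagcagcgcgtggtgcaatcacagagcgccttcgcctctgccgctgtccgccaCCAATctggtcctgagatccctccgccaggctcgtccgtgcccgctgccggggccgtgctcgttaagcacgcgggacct
Srebf2: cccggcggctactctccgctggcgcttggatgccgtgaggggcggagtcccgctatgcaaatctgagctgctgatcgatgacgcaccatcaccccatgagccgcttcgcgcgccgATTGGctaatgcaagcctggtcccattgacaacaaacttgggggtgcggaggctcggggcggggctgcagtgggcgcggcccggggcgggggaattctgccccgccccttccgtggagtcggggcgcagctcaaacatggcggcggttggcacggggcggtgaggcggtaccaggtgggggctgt

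Searched on both strands, the letters TCACNCCAC of a sterol response element were found in 1 of the 24 genes, Hmgcs1, as TCACCCCAC at position -137 from the start. That was 3.12% of the members' windows, beside 1.24% of all 32851 windows of the table and 1.09% of the 12570 windows of genes tested for expression here. A longer form of the same element was in no window of the members and in 0.0913% of all windows. Only these exact letters were searched. Forms that differ from them were not counted, such as ATCACCCCAT in the Srebf2 window, so a window without a match may still hold the element. The CCAAT box stood in 22 of 32 windows and in 20 of 24 genes, that is 68.8% of windows, against 37.4% of all windows and 37.5% of those of tested genes. The Sp1 box GGGCGG stood in 26 of 32 windows (81.2%), against 35.7% of all windows and 61.3% of those of tested genes. Some windows of the same gene overlap, and a match of letters is a description, not a binding site. CG dinucleotides, on which DNA methyltransferases act, had a median of 22 in the members' windows, with a range from 0 to 42, against 20 for the windows of tested genes and 7 for all windows. No methylation was measured in this series, so these windows describe the genes and not the samples.

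Total counts per gene table ran from 20228071 to 24198943 per sample, at which a floor of 3 counts corresponds to 0.12 to 0.151 counts-per-million (CPM, after scaling by the trimmed mean of M-values, TMM). Dnmt1, the deleted gene, stood at 86.6 and 67.0 CPM in the Dnmt1fl/fl samples and at 37.0 and 42.7 CPM in the Dnmt1KO samples, a log2 fold change of -0.95 (SE 0.24), with an adjusted p of 1.00 in edgeR's quasi-likelihood test. Dnmt1 transcript was thus still counted in both Dnmt1KO samples, and counts per gene do not show whether it held the deleted exons. The table lists only genes above 0 in every sample. All 8 macrophage markers were listed, with summed levels of 35511 and 34589 CPM in Dnmt1fl/fl and 17906 and 21485 CPM in Dnmt1KO. Without Lyz2, the gene into which the Cre of the LysM-Cre line is inserted, the other 7 summed to between 5741 and 6555 CPM in the 4 samples. Dnmt1KO replicate 1 stood apart in its markers of other cells: neutrophil markers (6 of 8 listed; Camp and Ngp were not) summed to 843 CPM there and to 212 to 306 CPM in the other samples, B cell markers (6 of 6) to 129 against 313 to 514 CPM, and dendritic cell markers (4 of 4) to 17.3 against 29.1 to 38.4 CPM. Summed levels of the other lists ran from 8.77 to 13.8 CPM for T cells (4 of 4), 7.47 to 11.8 CPM for eosinophils (2 of 4; Prg2 and Epx were not listed), 4.65 to 6.97 CPM for mast cells (4 of 4), 3.01 to 7.73 CPM for mesothelial cells (4 of 4) and 30.2 to 48.7 CPM for dividing cells (4 of 4). Dnmt1KO replicate 1 also read short transcripts higher and long ones lower, with a trend of 0.22 on the log2 scale at transcripts of 1381 bases and -0.31 at 6727 bases, whereas the other samples lay between -0.13 and 0.05 and between -0.01 and 0.17. The part of these differences in the results below was not tested, except where values without that sample or without the length trend are given. In bulk RNA, fewer cells of a type and less RNA per cell cannot be told apart.

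The comparison of Dnmt1KO with Dnmt1fl/fl asks how loss of Dnmt1 alters the transcripts of the macrophage. None of the 29 genes passed an adjusted p of 0.05 in edgeR's quasi-likelihood test over 12542 genes, and none had an unadjusted p under 0.05; over all genes the shares were 0% (0 genes) and 0.279% (35 genes). DESeq2 called 1 gene and limma-voom 0 over all genes, none of them a member. The fitted ratio was lower in Dnmt1KO for 22 of the 29 genes and higher for 7, that is 75.9% lower against 49.1% of all genes tested. With the transcript length trend removed from each sample the split was 16 lower and 13 higher, 55.2% against 40.7% of all genes, and without Dnmt1fl/fl replicate 1 it was 17 lower and 12 higher, 58.6% against 45.3% of all genes. The genes whose ratio turned from lower to higher when the length trend was removed were Fdft1, Lss, Sc5d, Scap, Erlin2 and Mbtps1, all of them within 0.09 of 0 in both fits on the log2 scale. The differences were small: the median log2 fold change was -0.09 for the members and 0.00 for all genes, with members between -0.55 and 0.38.

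Both Dnmt1KO samples lay below both Dnmt1fl/fl samples for 5 of the 29 genes, Idi1, Cyp51, Msmo1, Nsdhl and Srebf2, which is 17.2%, where 8.56% of all genes tested did so. Both Dnmt1KO samples lay above for 1 gene, Acat2 (3.45%), where 8.14% of all genes did so. Under scaling by library totals alone Sqle joined the genes below, for 6 of 29 members beside 10.6% of all genes. With the length trend removed Srebf2 left them, for 4 of 29 members beside 7.5% of all genes. There Lss joined Acat2 above, for 2 of 29 members beside 11.2% of all genes. Differences larger than the pooled SD between replicates were found for 9 of 29 members (31.0%) and 23.6% of all genes.

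**Figure D1:**
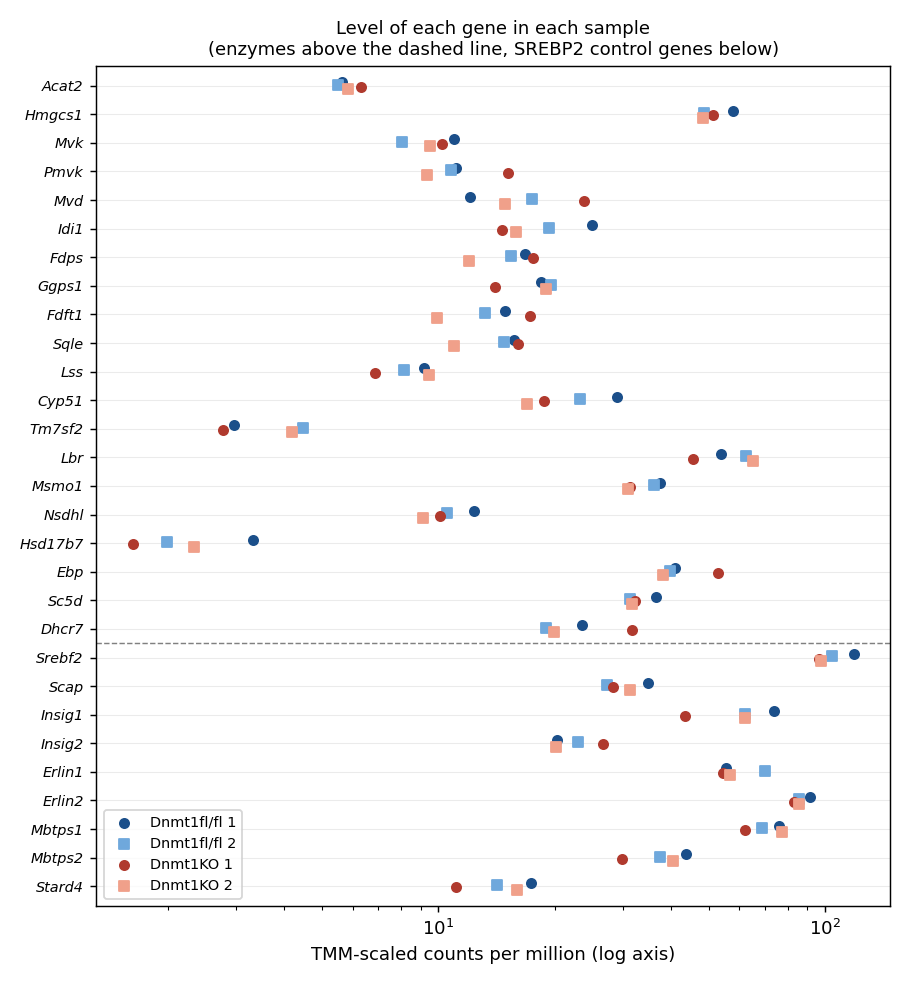
Level of each of the 29 genes in each sample in CPM on a log axis, with enzymes in pathway order above and SREBP2 control genes below; blue points are Dnmt1fl/fl and red points Dnmt1KO samples, with circles for replicate 1 and squares for replicate 2. Levels ran from 1.62 CPM (Hsd17b7) to 119 CPM (Srebf2), and within most genes the points of both genotypes overlapped.

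The first enzymes turn acetyl-CoA into HMG-CoA. Acat2, here the cytosolic thiolase that joins acetyl-CoA units, stood at 5.65 and 5.50 CPM in Dnmt1fl/fl and at 6.31 and 5.85 CPM in Dnmt1KO, a log2 fold change of 0.12 (SE 0.30). Hmgcs1, the cytosolic HMG-CoA synthase and a classic SREBP2 target, stood at 57.6 and 48.6 CPM in Dnmt1fl/fl and at 51.3 and 48.4 CPM in Dnmt1KO, a log2 fold change of -0.09 (SE 0.21, 95% interval -0.62 to 0.44). Acat2 did not overlap between the genotypes, but the gap was narrow, and 28.9% of its exonic stretches of 100 bases were shared with other genes, mainly its neighbour Acat3 and Tcp1, so its count is uncertain. For Hmgcs1 the Dnmt1KO samples lay at the level of Dnmt1fl/fl replicate 2.

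The next enzymes lead from mevalonate to isopentenyl and dimethylallyl diphosphate, the building blocks of all isoprenoids, and 3 of the 4 had a higher ratio in Dnmt1KO. Mvk, mevalonate kinase, stood at 11.0 and 8.05 CPM in Dnmt1fl/fl and at 10.2 and 9.53 CPM in Dnmt1KO. Pmvk, phosphomevalonate kinase, stood at 11.1 and 10.8 CPM against 15.1 and 9.36 CPM. Mvd, the decarboxylase that makes isopentenyl diphosphate, had the highest ratio of the list over all 4 samples. It read 12.1 and 17.5 CPM against 23.8 and 14.9 CPM, with a log2 fold change of 0.38 (SE 0.34, 95% interval -0.47 to 1.23). That rank was not kept without Dnmt1KO replicate 1, where Mvd was -0.00089, or without Dnmt1fl/fl replicate 1, where it was 0.14. All 3 overlapped between the genotypes, and for Pmvk and Mvd the highest sample was Dnmt1KO replicate 1.

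Idi1, the isomerase that interconverts the isoprene units, stood lower in both Dnmt1KO samples. It lies on chr13:8885501-8892451 of GRCm38 and read 24.9 and 19.3 CPM in Dnmt1fl/fl and 14.6 and 15.9 CPM in Dnmt1KO, that is 22.1 ± 3.97 against 15.3 ± 0.948 CPM (SD, n = 2 each). The fold was 0.69, with a log2 fold change of -0.54 (SE 0.25, 95% interval -1.15 to 0.08) and an unadjusted p of 0.0771 and an adjusted p of 1.00 in edgeR's quasi-likelihood test, which placed it at rank 76 of 12542. Leaving out each sample in turn gave -0.70 to -0.34. Of its 100-base exonic stretches 21.9% were shared with the loci Gm13502 and Gm48574, the latter overlapping it on the opposite strand.

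Prenyl diphosphates feed sterol synthesis as well as protein prenylation. Fdps, farnesyl diphosphate synthase, stood at 16.7 and 15.4 CPM in Dnmt1fl/fl and at 17.6 and 12 CPM in Dnmt1KO, with 21.4% of its stretches shared, mainly with Gm43738 on the same strand. Ggps1, which makes geranylgeranyl diphosphate, stood at 18.4 and 19.5 CPM against 14.0 and 19.0 CPM. For these genes the Dnmt1KO samples differed from each other by more than the genotype means did, with Fdps lower in replicate 2 and Ggps1 lower in replicate 1. The log2 fold changes were -0.12 (SE 0.29) and -0.20 (SE 0.26). That of Ggps1 was -0.00037 without Dnmt1KO replicate 1 and -0.44 without Dnmt1KO replicate 2.

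From farnesyl diphosphate to lanosterol, the first committed steps to sterol, no enzyme was apart between the genotypes. Fdft1, squalene synthase, stood at 14.9 and 13.2 CPM in Dnmt1fl/fl and at 17.3 and 9.92 CPM in Dnmt1KO; 18.4% of its stretches lay in exons shared with other loci, mainly with Ctsb on the opposite strand, so reads from the genes cannot be told apart where strand was not used. Sqle, the squalene epoxidase that is a rate-setting step, stood at 15.7 and 14.8 CPM against 16.1 and 11.0 CPM. Lss, the cyclase that forms lanosterol, stood at 9.16 and 8.17 CPM against 6.87 and 9.45 CPM. The Dnmt1KO samples bracketed the Dnmt1fl/fl samples for all 3, with log2 fold changes of -0.04 (SE 0.34), -0.18 (SE 0.29) and -0.09 (SE 0.31).

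Lanosterol is turned into cholesterol by removal of its extra methyl groups and by changes to its double bonds, and 7 of these 9 enzymes had a lower ratio in Dnmt1KO. Cyp51, the lanosterol demethylase on chr5:4081145-4104746, had the lowest ratio and the lowest p of the list. It read 28.9 and 23.3 CPM in Dnmt1fl/fl and 18.8 and 16.9 CPM in Dnmt1KO, that is 26.1 ± 3.97 against 17.8 ± 1.36 CPM (SD, n = 2 each). The fold was 0.682, with a log2 fold change of -0.55 (SE 0.23, 95% interval -1.13 to 0.03), an unadjusted p of 0.0586 and an adjusted p of 1.00 in edgeR's quasi-likelihood test, at rank 50 of 12542. Without Dnmt1KO replicate 1 its unadjusted p in that test was 0.0225, in a fit in which 352 of 12912 genes were under 0.05, and leaving out each sample in turn gave log2 fold changes from -0.69 to -0.39. Cyp51 and Idi1 were thus the enzymes in which the gap between genotypes was widest, at about the same fold.

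Demethylation at the 4-position needs Msmo1, Nsdhl and Hsd17b7, and the first 2 were lower in both Dnmt1KO samples. Msmo1, the sterol methyl oxidase on chr8:64718139-64733792, was the tightest gene of the list, with 37.5 and 36.2 CPM in Dnmt1fl/fl and 31.2 and 31.0 CPM in Dnmt1KO. Its means were 36.9 ± 0.929 and 31.1 ± 0.0965 CPM (SD, n = 2 each), with a log2 fold change of -0.25 (SE 0.20, 95% interval -0.73 to 0.24); the SE comes from a spread shared over genes and is wider than that of its own 4 values. Nsdhl, the decarboxylating dehydrogenase on chrX:72918557-72958514, read 12.4 and 10.5 CPM against 10.1 and 9.15 CPM, and its log2 fold change was also -0.25 (SE 0.27), or -0.12 without Dnmt1fl/fl replicate 1. Hsd17b7, the ketoreductase, rested on 32 to 68 counts per sample and read 3.31 and 1.99 CPM against 1.62 and 2.33 CPM, with a log2 fold change of -0.42 (SE 0.47, 95% interval -1.60 to 0.76). Its groups overlapped, and without Dnmt1fl/fl replicate 1 its log2 fold change was -0.01.

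The remaining steps act on double bonds of the ring system. Tm7sf2 and Lbr both reduce the bond at position 14, and Lbr is also a receptor of the nuclear lamina. Tm7sf2 stood at 2.97 and 4.47 CPM in Dnmt1fl/fl and at 2.78 and 4.19 CPM in Dnmt1KO, and Lbr at 53.7 and 62.5 CPM against 45.5 and 65.1 CPM. In either gene the replicates numbered 2 were higher than those numbered 1 in both genotypes, and the genotypes overlapped. Ebp, the sterol isomerase, stood at 41.0 and 39.6 CPM against 52.8 and 38.0 CPM. Sc5d, the desaturase, stood at 36.5 and 31.2 CPM against 32.3 and 31.7 CPM, and Dhcr7, the reductase that acts on 7-dehydrocholesterol, at 23.5 and 19.0 CPM against 31.7 and 19.9 CPM. Ebp and Dhcr7 were the only enzymes of these last steps with a higher ratio, at log2 fold changes of 0.17 (SE 0.24) and 0.28 (SE 0.30), and in both the highest sample was Dnmt1KO replicate 1, with replicate 2 within or below the range of the Dnmt1fl/fl samples.

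**Figure D2:**
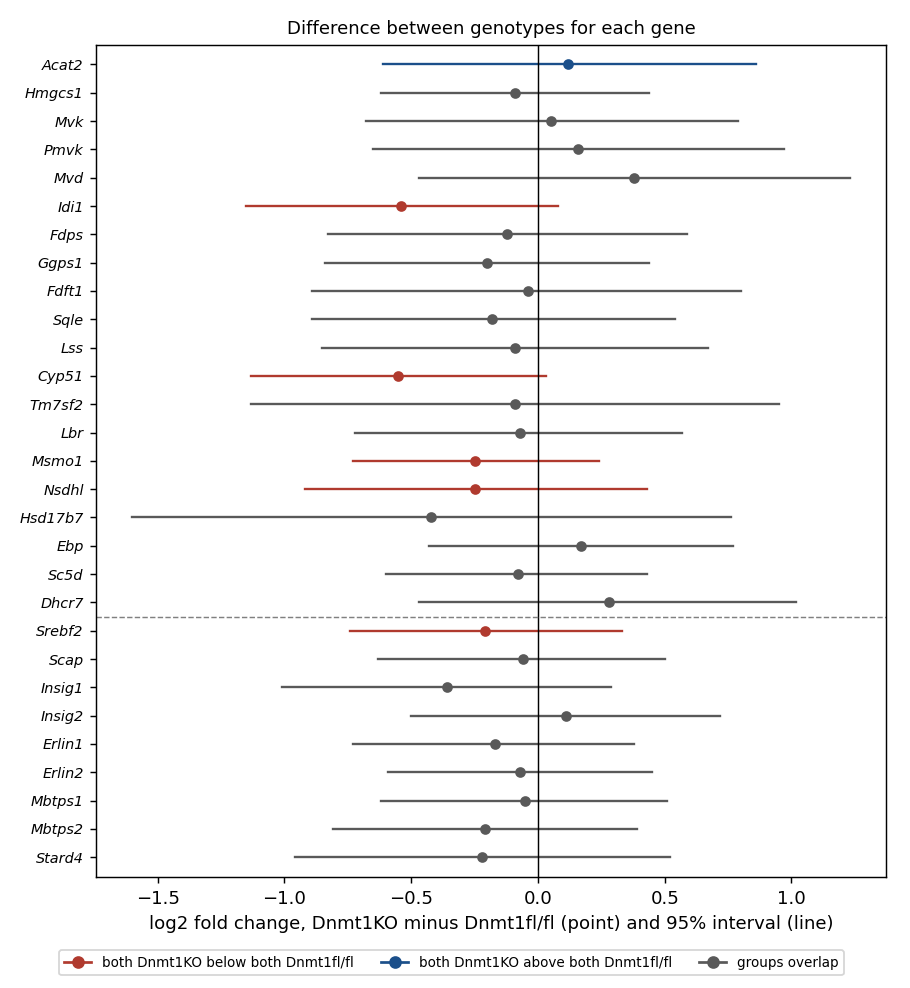
Log2 fold change of each gene, Dnmt1KO minus Dnmt1fl/fl, as a point with its 95% interval as a line, with the dashed line between enzymes and SREBP2 control genes; red and blue mark genes whose samples did not overlap. Every interval included 0, and the points nearest to leaving it were those of Cyp51 (-0.55) and Idi1 (-0.54).

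Srebf2, which encodes the SREBP2 precursor, was the most counted gene of the list and was lower in both Dnmt1KO samples by a small amount. It lies on chr15:82147181-82205379 and read 119 and 104 CPM in Dnmt1fl/fl and 96.1 and 97.4 CPM in Dnmt1KO. The means were 112 ± 10.4 and 96.8 ± 0.904 CPM (SD, n = 2 each), with a log2 fold change of -0.21 (SE 0.21, 95% interval -0.74 to 0.33) and an adjusted p of 1.00 in edgeR's quasi-likelihood test. The log2 fold change was -0.09 with the length trend removed, where its samples overlapped, and -0.11 without Dnmt1fl/fl replicate 1. A transcript level does not tell how much of the protein was cut and nuclear.

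Among the proteins that escort or retain SREBP2, Insig1 had the lowest ratio. Insig1, on chr5:28071363-28078662, holds Scap in the endoplasmic reticulum and is itself a strong SREBP2 target. It read 73.6 and 62.1 CPM in Dnmt1fl/fl and 43.5 and 62.1 CPM in Dnmt1KO, so that Dnmt1KO replicate 2 was level with Dnmt1fl/fl replicate 2 and only Dnmt1KO replicate 1 was lower. The log2 fold change was -0.36 (SE 0.26, 95% interval -1.01 to 0.29); without Dnmt1KO replicate 1 it was -0.13. Insig2, the related retention protein that does not depend on SREBP2 in the same way, stood at 20.3 and 23.0 CPM against 26.7 and 20.1 CPM and was the only control gene with a higher ratio, at 0.11 (SE 0.25).

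Scap, the sterol-sensing escort, stood at 34.9 and 27.3 CPM in Dnmt1fl/fl and at 28.3 and 31.3 CPM in Dnmt1KO. The Erlin proteins are prohibitin-like membrane proteins that bind the Scap and Insig complex; Erlin1 stood at 55.4 and 69.9 CPM against 54.5 and 56.6 CPM, and Erlin2 at 91.3 and 85.5 CPM against 82.9 and 85.7 CPM. These 3 genes overlapped between the genotypes, with log2 fold changes of -0.06 (SE 0.23), -0.17 (SE 0.22) and -0.07 (SE 0.21). Of the Golgi proteases, Mbtps1, which makes the first cut, stood at 76.0 and 68.5 CPM against 62.2 and 77.2 CPM, and Mbtps2, which makes the second within the membrane, at 43.6 and 37.5 CPM against 29.9 and 40.3 CPM. Stard4, a soluble sterol carrier and SREBP2 target, stood at 17.4 and 14.2 CPM against 11.1 and 16.0 CPM. In all 3 the lowest sample was Dnmt1KO replicate 1 and Dnmt1KO replicate 2 lay within or above the Dnmt1fl/fl range, with log2 fold changes of -0.05 (SE 0.23), -0.21 (SE 0.24) and -0.22 (SE 0.30). Without Dnmt1KO replicate 1 the log2 fold change of Mbtps2 was -0.01, and without Dnmt1KO replicate 2 it was -0.44. For Mbtps2, 27.0% of the 100-base exonic stretches belong also to Yy2 on the same strand, so its count is uncertain.

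As groups, the 20 enzymes had a median log2 fold change of -0.09, with 14 lower and 6 higher, and the 9 control genes one of -0.17, with 8 lower and 1 higher, beside 0.00 for all genes; removing the length trend turned Fdft1, Lss and Sc5d among the enzymes and Scap, Erlin2 and Mbtps1 among the control genes to slightly higher ratios. In that fit the medians were -0.04 for the enzymes and -0.09 for the control genes, beside 0.05 for all genes. Summed over the enzymes the level was 437 and 410 CPM in Dnmt1fl/fl and 420 and 384 CPM in Dnmt1KO, which overlapped. Summed over the control genes it was 532 and 493 CPM against 435 and 487 CPM, lower in both Dnmt1KO samples, although replicate 2 lay close to Dnmt1fl/fl replicate 2. Without Dnmt1KO replicate 1 the median of the control genes was -0.05 and that of the enzymes -0.12, and without Dnmt1fl/fl replicate 1 they were -0.07 and -0.01.

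Dnmt1fl/fl replicate 1 was the highest sample for 14 of the 29 genes (48.3%), against 19.0% of all genes tested. The lowest sample was Dnmt1KO replicate 1 for 13 genes (44.8%, against 39.6% of all genes) and Dnmt1KO replicate 2 for 10 (34.5%, against 25.8%). Dnmt1KO replicate 1 was lowest in 7 of the 9 control genes and in 6 of the 20 enzymes, and replicate 2 in 1 and 9 of them; the difference between the classes was not tested. The control genes had the longer transcripts, with a median of 4797 bases against 3055 for the enzymes, and Dnmt1KO replicate 1 read long transcripts low. The part of length in this contrast was not tested. Of the control genes with shorter transcripts, Insig1 (2697 bases) and Erlin1 (3228 bases) were also lowest in Dnmt1KO replicate 1, whereas Insig2 (2697 bases) was highest there. Against each gene's mean, the enzymes had median deviations of 0.13 and -0.01 in Dnmt1fl/fl and -0.01 and -0.14 in Dnmt1KO on the log2 scale, and the control genes 0.20 and 0.00 against -0.11 and 0.05. Over all 29 genes the median deviations were 0.13 and 0.00 in Dnmt1fl/fl and -0.10 and -0.06 in Dnmt1KO, lower in both Dnmt1KO samples, whereas those of all genes tested lay between -0.01 and 0.01. Within either class the medians of the genotypes met or overlapped, and Dnmt1fl/fl replicate 1 stood highest in both.

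**Figure D3:**
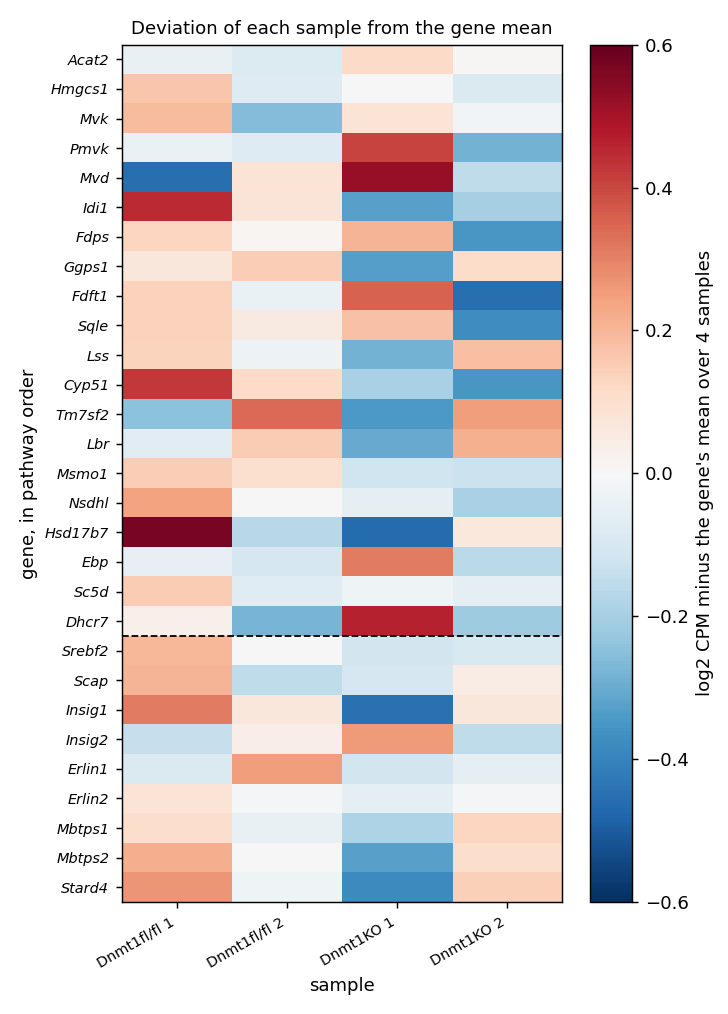
Deviation of each gene from its own mean over the 4 samples on the log2 scale, shown as colour by gene and sample (red above the mean, blue below), with enzymes above the dashed line and SREBP2 control genes below. Dnmt1fl/fl replicate 1 was the highest sample for 14 of the 29 genes, and the Dnmt1KO samples differed from each other in many genes, with replicate 1 lowest in 7 of the 9 control genes.

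The Dnmt1KO samples differed from each other along transcript length. Across the 29 genes the log2 difference between Dnmt1KO replicates 1 and 2 had a Pearson r of -0.55 and a Spearman rho of -0.54 with the length of the longest annotated transcript, and across 12351 genes the Pearson r was -0.31; genes share the same libraries and are not independent replicates. Replicate 1 was above replicate 2 in 9 of the 10 members with the shortest transcripts (up to 2953 bases), with a median difference of 0.44, and in 2 of the 10 with the longest (from 4244 bases), with a median of -0.37. Short transcripts were found among the genes with a higher ratio in Dnmt1KO, such as Pmvk (1194 bases), Ebp (1743 bases), Mvd (1833 bases) and Dhcr7 (2815 bases). They were also found among those with a lower ratio, such as Nsdhl (2168 bases, -0.25) and Insig1 (2697 bases, -0.36). Removing the trend left Pmvk at 0.02 and Ebp at 0.10, but Mvd at 0.33 and Dhcr7 at 0.29. Longer transcripts were found among the genes read lower in Dnmt1KO replicate 1, such as Mbtps2 (4797 bases) and Stard4 (5097 bases), although Insig1 was also read lower there. With the trend removed, Idi1, Cyp51, Msmo1 and Nsdhl (4 of 29 members) still lay lower in both Dnmt1KO samples, as 7.5% of all genes then did.

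**Figure D4:**
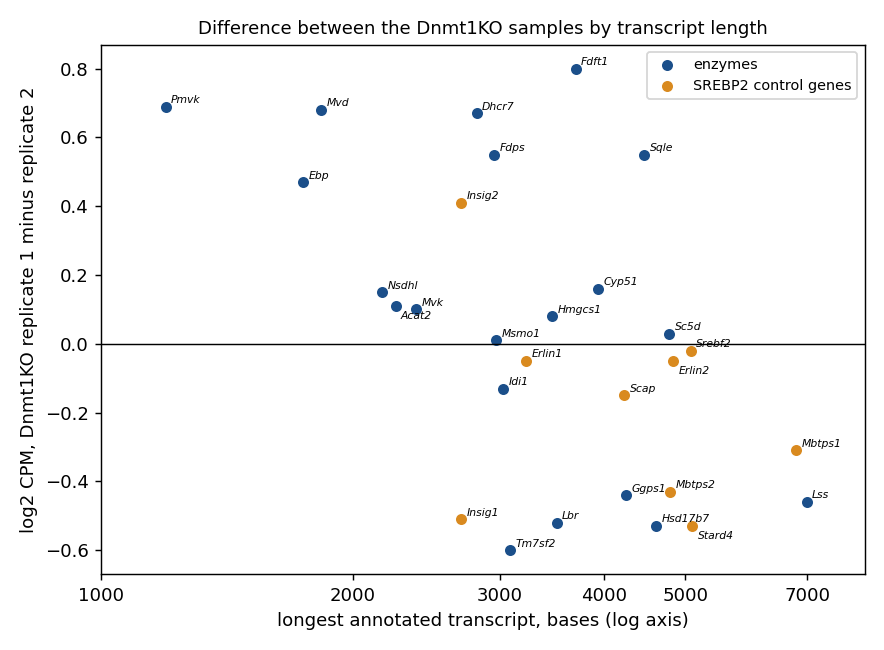
Log2 difference between Dnmt1KO replicates 1 and 2 for each of the 29 genes against the length of its longest annotated transcript in bases (log axis). The Pearson r was -0.55, with Pmvk, Ebp and Mvd above 0 at the short end and Mbtps1 and Lss below 0 at the long end.

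Per base of transcript, levels can be set beside each other between genes. Averaged over the 4 samples as CPM per kilobase of exon (RPKM), Insig1 (19.5), Ebp (18.5), Erlin2 (14.8) and Srebf2 (14.5) were highest, followed by Erlin1 and Lbr (11.9 each) and Hmgcs1 (11.2). Lowest were Tm7sf2 (0.818), Lss (0.78) and Hsd17b7 (0.453). The control genes thus took 4 of the 5 highest places, and Ebp was the one enzyme among them. Lss has 10787 exonic bases over all its isoforms against 6992 in its longest transcript, so its level per kilobase would be higher on the latter. Insig1 has 3093 against 2697 bases and Ebp 2310 against 1743, so their close order depends on the length used. Of the pair that reduces the same bond, Lbr was read at 11.9 and Tm7sf2 at 0.818 RPKM.

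Other genes of the pathway were read from 4 lists: 43 of 43 were tested, and edgeR's quasi-likelihood test called 0 at an adjusted and 0 at an unadjusted p of 0.05. Of these, 23 had a lower and 20 a higher ratio in Dnmt1KO, with a median of -0.03. The 15 genes of the isoprenoid branches, which use farnesyl and geranylgeranyl diphosphate for dolichol, ubiquinone and prenylated proteins, were 10 lower and 5 higher, with a median of -0.11. Within them Pdss2, a subunit of the synthase of the ubiquinone side chain, was below in both Dnmt1KO samples, with 4.87 and 5.42 CPM against 4.49 and 3.56 CPM (log2 fold change -0.36, SE 0.33). Chm, the escort protein for Rab prenylation, read 34.1 and 30.5 CPM against 21.4 and 31.6 CPM (-0.29, SE 0.26) and overlapped.

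Of 8 genes of sterol-linked degradation in the endoplasmic reticulum, 3 were lower and 5 higher, with a median of 0.02; the largest differences were those of Vcp, the segregase (246 and 242 against 379 and 220 CPM), and of Faf2, its cofactor (50.7 and 49.1 against 64.6 and 50.3 CPM). The 8 genes that supply acetyl-CoA and electrons had 2 lower and 6 higher, with a median of 0.15. There Cyb5r3, the cytochrome b5 reductase, read 89.7 and 80.5 CPM against 150 and 78.7 CPM (log2 fold change 0.42, SE 0.35), and Slc25a1, the mitochondrial citrate carrier, 39.9 and 37.2 CPM against 60.5 and 40.0 CPM (0.38, SE 0.27). In each of these 4 genes the high value was that of Dnmt1KO replicate 1, and the other sample of that genotype lay near the Dnmt1fl/fl samples or below them. The 12 genes of SREBP traffic and nuclear partners were 8 lower and 4 higher, with a median of -0.06. Srebf1, the paralog that drives fatty acid synthesis, read 53.6 and 53.8 CPM against 69.9 and 54.4 CPM, at a log2 fold change of 0.21 (SE 0.23); the high value was again that of Dnmt1KO replicate 1, and replicate 2 was level with the Dnmt1fl/fl samples. Nfyc, a subunit of NF-Y, read 30.9 and 28.3 CPM against 37.9 and 29.5 CPM (0.19, SE 0.23) and overlapped.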

How the data were processed

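RNA of 4 peritoneal macrophage samples was sequenced by the authors as 150-base paired-end reads from NEBNext Ultra libraries. Reads were aligned to mm10 with HISAT2 2.0.5 and counted per gene with featureCounts 1.5.0-p3; the submitters' processing notes also name DESeq2 1.20.0. The annotation, the strand setting and the handling of reads that fit several genes were not given in the sources used here. The authors deposited estimated counts per gene without scaling, of which 72.6% to 76.4% per sample were whole numbers, in a table of 13834 rows (13825 symbols) and in a shorter table of 2749 of the same rows. 10 of the 29 members had fractional counts.

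Counts were rounded, filtered with filterByExpr, scaled by TMM (factors 0.91 to 1.044) and fitted with edgeR 4.0.16 in R 4.3.3 (glmQLFit and glmQLFTest, two-sided, Benjamini-Hochberg over the 12542 genes kept, threshold 0.05). All 29 members passed the filter. Replicates varied by 28.9% (edgeR's common dispersion, 0.0837), and an exact permutation test of 2 against 2 samples cannot go below p = 0.333. Standard errors and 95% intervals were derived from the quasi-likelihood statistic. CPM values use TMM-scaled library sizes, and RPKM values divide them by the union of exonic bases in GENCODE M21 (GRCm38), which also gave gene coordinates, transcript lengths and the shares of 100-base stretches found in other genes. A length trend was estimated per sample by loess (span 0.5) and removed through offsets. Counting intervals and floors cover counting error only. The scripts were tested on simulated data.

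The alternatives tried were limma-voom (limma 3.58.1), DESeq2 1.42.0, no filter, at least 10 counts in every sample, library totals only, a replicate block, removal of the length trend, both together, the shorter table alone, unadjusted p-values and leaving out each sample. Each member was named, with Dnmt1 and the 2 genes of largest absolute log2 fold change in each list of other pathway genes. The members and lists were chosen with earlier results of these data known. Python 3.11.15 with SciPy 1.17.1 was used for summaries. Promoter windows came from RefSeq (GRCm38.p6).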

Additional observations from a re-analysis of the deposited data

How the results depend on the processing

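No sterol gene was called by an adjusted p of 0.05 under any alternative run, and the medians of both classes stayed at or below 0. Over all genes, edgeR's quasi-likelihood test called 0, against 1 with DESeq2, 35 with unadjusted p-values and 0 to 1061 when each sample was left out. The 1061 came without Dnmt1KO replicate 2, with 10 calls without Dnmt1fl/fl replicate 2 and 2 without Dnmt1fl/fl replicate 1. Those fits assume that the lone sample varies like the others, and the cause was not tested. Without Dnmt1KO replicate 2 the members Mvd, Dhcr7, Insig1 and Idi1 had unadjusted p-values under 0.05 in edgeR's test, as had 3521 of 12754 genes, and their lowest adjusted p was 0.0748. Scaling by library totals gave Cyp51 an unadjusted p of 0.0378 in edgeR's test, with 40 of 12542 genes under 0.05. The median of the enzymes ran from -0.16 to -0.01 when samples were left out, the latter without Dnmt1fl/fl replicate 1. For the control genes the median ran from -0.23 to -0.05, the latter without Dnmt1KO replicate 1. In the shorter table, which holds 13 members, the median of the enzymes was -0.22, beside -0.19 for all its genes. Scaled by library totals, all 13 were at least 0.2 in size, the minimum that the methods name. That median thus reflects which rows the table holds and says nothing on the processing.

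Same-numbered samples did not deviate together: the correlation of their deviations from the group means was -0.35, so the numbers only name samples. With the replicate as a block 0 genes were called and 34 had an unadjusted p under 0.05 in edgeR's test; with the crossed pairing, an alternative chosen after seeing the data, the counts were 3 and 297. The block turned no member's direction, and both medians and the count of members called (0) were unchanged to within the spread between replicates.

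With all 4 samples, 7 single genes changed direction, each near 0, under 3 alternatives. Mvk was -0.02 with library totals only, where the median of all genes moved from 0.00 to -0.06. With the length trend removed, the median of all genes moved to 0.05. In that fit Mbtps1 was 0.09, Lss 0.05, Erlin2 0.04, Fdft1 0.03, Sc5d 0.03 and Scap 0.02. With the block as well, the median of all genes was 0.04. There Mbtps1 was 0.09, Lss 0.05, Erlin2 0.04, Sc5d 0.03 and Scap 0.02. Leaving out each sample turned 18 genes. Among enzymes the log2 fold change ran from -0.20 to 0.04 for Hmgcs1, -0.15 to 0.29 for Mvk, -0.22 to 0.47 for Pmvk, -0.00089 to 0.68 for Mvd, -0.42 to 0.13 for Fdps, -0.50 to 0.30 for Fdft1, -0.48 to 0.08 for Sqle, -0.33 to 0.12 for Lss, -0.43 to 0.23 for Tm7sf2, -0.35 to 0.16 for Lbr, -0.09 to 0.39 for Ebp, -0.19 to 0.04 for Sc5d and -0.09 to 0.58 for Dhcr7. Among control genes it ran from -0.23 to 0.13 for Scap, -0.11 to 0.30 for Insig2, -0.33 to 0.01 for Erlin1, -0.22 to 0.09 for Mbtps1 and -0.51 to 0.02 for Stard4. In these fits Idi1, Cyp51, Msmo1, Nsdhl, Srebf2 and Insig1 kept a lower ratio. Hsd17b7, with 32 to 68 counts per sample, ran from -0.74 to -0.01, the latter without Dnmt1fl/fl replicate 1.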

Other observations

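The shorter deposited table held 13 of the 29 sterol genes (44.8%), against 2749 of all 13834 rows (19.9%). Those shares are not like for like, because all rows include genes with few counts. Of the 13834 rows, 11696 had at least 10 counts in every sample, whereas the lowest count in the shorter table was 99. The part of low counts in the 19.9% was not tested. By the TMM-scaled fit, 41.4% of members and 41.5% of all genes tested had a log2 fold change of at least 0.2 in size. The 13 genes were Mvd, Idi1, Fdps, Ggps1, Sqle, Cyp51, Msmo1, Nsdhl, Srebf2, Insig1, Erlin1, Mbtps2 and Stard4. Of them, 12 had a lower ratio in Dnmt1KO and Mvd a higher one. Ratios leaned the same way over the whole shorter table: fitted alone, 67.7% of its genes were lower, with a median log2 fold change of -0.19, beside -0.21 for its sterol genes. Among them were the 5 genes with both Dnmt1KO samples below both Dnmt1fl/fl samples. The table carries no description of its own; the study's methods name a minimum fold change for a gene list of about its size. By the TMM-scaled fit used here, the table held Fdps (-0.12) and Erlin1 (-0.17) and left out Dhcr7 (0.28) and Hsd17b7 (-0.42). Scaled by library totals alone, Fdps was -0.21, Erlin1 -0.24, Dhcr7 0.19 and Hsd17b7 -0.47. On that scale all 13 members in the shorter table were at least 0.2 in size, the minimum that the methods name. Of the members left out, only Hsd17b7 reached that size. The lowest count in the shorter table was 99, and 2 members, Hsd17b7 and Tm7sf2, had lower counts than that.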
